A study of Mus musculus with 36 samples.

Results

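The genes described here belong to the Wnt system, encode secreted ligands, a secreted enhancer and secreted inhibitors, and were measured in mesenchymal stem cells (MSCs) of 4 mouse tissues. They were chosen by name, as Wnt4, Wnt5a, Wnt5b and Wnt10b (ligands), Rspo3 (an R-spondin), and Sfrp1, Sfrp2, Sfrp4, Dkk2 and Dkk3 (secreted inhibitors), so that there are 10 members of 24411 genes in the tables. The cells came from C57BL6/J mice of 8 weeks. They were femoral bone marrow MSCs (fBM-MSCs, 3 libraries), vertebral bone marrow MSCs (vBM-MSCs, 2 libraries), adipose tissue MSCs (A-MSCs, 3 libraries) and lung MSCs (P-MSCs, 3 libraries). The labels name no transgene or treatment for any group, and all cells were expanded on collagen-coated dishes in one MSC medium that contained a Rock inhibitor, so each value is that of a short-term culture and not of the tissue. Crushed bone gave the marrow cells, whereas lung and fat were digested with collagenase, so the way of release cannot be told apart from the split into bone marrow and non-bone marrow. The study took all 4 tissues from the same mice, but which libraries share a mouse is not given in the sources used here. Expression was measured by RNA-seq (11 libraries), and open chromatin by ATAC-seq, which was deposited as 1 peak list per tissue pooled over 6 samples, which were 3 replicates entered 2 times each.

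Wnt proteins are lipid-modified secreted ligands that bind Frizzled receptors. With the co-receptors Lrp5 and Lrp6 they stabilise beta-catenin, which acts with TCF/LEF factors on transcription, and with Ror and Ryk receptors they act independently of beta-catenin on cell polarity and movement. Wnt5a and Wnt5b are known mainly for the latter branch and Wnt10b for the former, in which it favours bone formation over fat formation, while Wnt4 can act through either. R-spondins such as Rspo3 bind Lgr receptors and the membrane E3 ligases Rnf43 and Znrf3, and so keep Frizzled receptors at the surface. Secreted Frizzled-related proteins (Sfrp) carry a Frizzled-like domain that binds Wnt proteins, and Dickkopf proteins such as Dkk1 and Dkk2 bind Lrp5 and Lrp6. Dkk3 is a divergent Dickkopf protein that is not known for this Lrp binding.

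The libraries held 19569650 to 40517739 expected counts, RSEM's estimate of the reads from each gene. A count of 0 in a library therefore allows up to 3 counts, or 0.0740 to 0.153 CPM (the count scaled to the library total), which covers counting error only. Levels are given in TPM, the share of all transcripts scaled per length, and tests compare the 4 tissues by edgeR with Benjamini-Hochberg adjustment over the 12509 genes tested. All 4 positive surface markers of the study's MSC panel (Itgb1, Cd44, Ly6a, Vcam1) were above 0 in every library. Of the negative markers, Ptprc reached at most 0.35 TPM and Pecam1 at most 3.84 TPM, but Cd34 stood at 79.2, 72.7 and 10.2 TPM in the fBM-MSCs and at 7.33 and 7.46 TPM in the vBM-MSCs. In these bulk cultures, fewer cells of a type and less RNA per cell cannot be told apart.

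Among the 4 tissues 9 of the 10 genes differed, beside 60.6% of all genes tested, and Sfrp2 was the one that missed the threshold (edgeR adjusted p = 0.0739). The call of Wnt5b (edgeR adjusted p = 0.0326) was lost without fBM-MSC replicate 1 or 2 (0.0949 and 0.0736), A-MSC replicate 2 (0.0658) or P-MSC replicate 2 or 3 (0.0601 and 0.0502). It was also lost with the replicate number as a block (edgeR adjusted p = 0.0730). The call of Rspo3 (edgeR adjusted p = 0.0243) was lost without A-MSC replicate 1 or 3 (0.0650 and 0.0531). Between bone marrow and non-bone marrow, 7 of the 10 genes passed the test, beside 47.2% of all genes, and all 7 were higher in bone marrow, beside 24.8% of all genes. These 7 were Wnt4, Wnt5a, Wnt5b, Wnt10b, Rspo3, Sfrp4 and Dkk3, and no member was called lower. Of these 7, Wnt4, Wnt10b and Sfrp4 passed the filter on low counts through bone marrow libraries alone, as did Sfrp2, so that the filter favoured a call in that direction, and of the 6 members that passed on both sides 4 were higher. The median log2 difference of the 10 genes was 2.05, beside 0.03 for all genes tested. It includes Wnt4, Wnt10b, Sfrp2 and Sfrp4, so the filter favoured a higher value here too. The values of the 6 members that passed on both sides were 0.57 (Wnt5a), 1.94 (Wnt5b), 0.23 (Sfrp1), -1.19 (Dkk2), 3.63 (Dkk3) and 1.13 (Rspo3). Between the 2 bone marrow sites only Sfrp1 passed, 1 of 10 beside 12.8% of all genes. Between fBM-MSCs and A-MSCs 7 of 10 passed and 8 of 10 between fBM-MSCs and P-MSCs, beside 40.9% and 47.7% of all genes. Wnt10b and Sfrp4 are among the 7, and Wnt4, Wnt10b, Sfrp2 and Sfrp4 among the 8, so the filter favoured these calls as well. From vBM-MSCs, 4 of 10 differed in A-MSCs and 5 of 10 in P-MSCs, beside 25.6% and 38.7%. Sfrp4 is among both of these counts and Wnt4 among the latter, with the same limit. Between A-MSCs and P-MSCs 6 of 10 differed, beside 30.9%. These comparisons share their libraries and are not independent of each other. The members, and the pathway lists below, were chosen with earlier results of these data known. Their counts beside the shares of all genes are therefore descriptions, not an independent comparison.

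**Figure D1:**
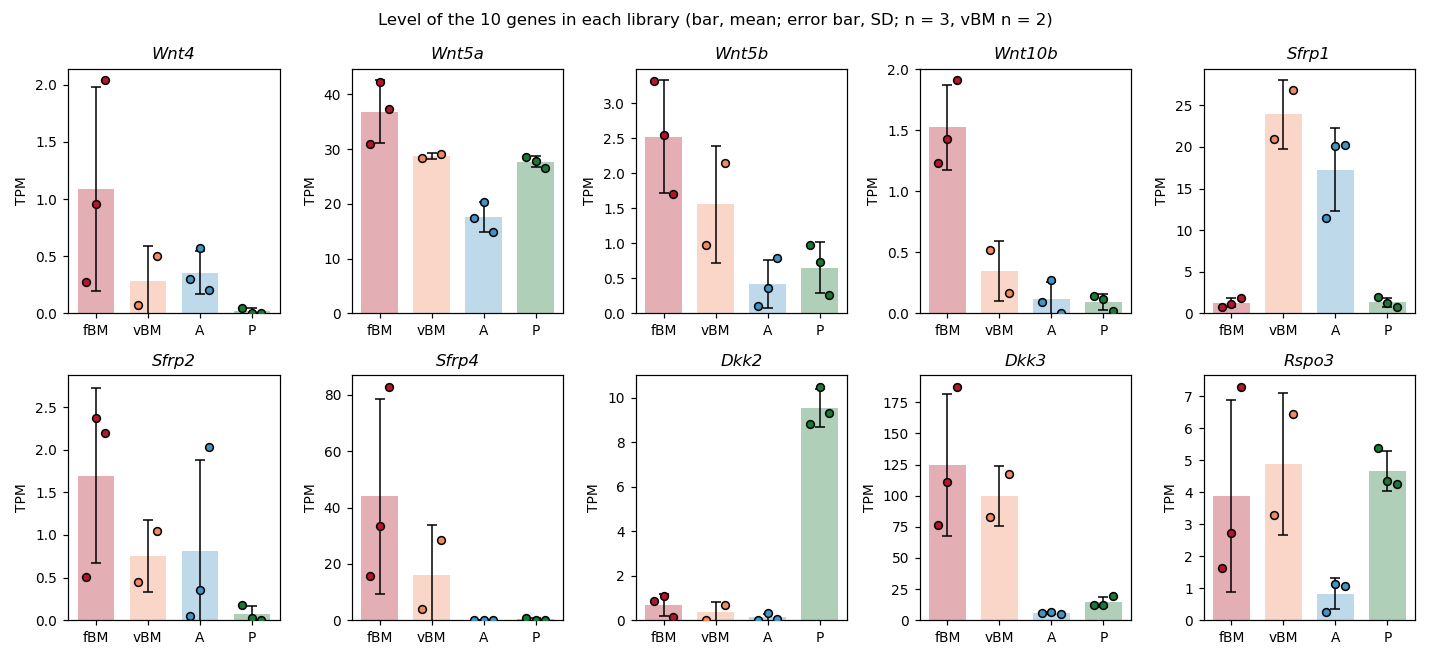
Level of each of the 10 genes in TPM (vertical axis, linear from 0, scaled per gene) in fBM-MSCs, vBM-MSCs, A-MSCs and P-MSCs. Points are libraries, bars are means and error bars are SD, drawn only above 0 (n = 3, vBM-MSCs n = 2). Dkk3 and Sfrp4 were highest in both bone marrow groups, Sfrp1 in vBM-MSCs and A-MSCs, and Dkk2 in P-MSCs, at 8.84 to 10.5 TPM.

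Wnt5a, the most abundant of the 4 ligands, was present in every library. It stood at 30.9, 42.3 and 37.4 TPM in the fBM-MSCs, at 28.4 and 29.1 TPM in the vBM-MSCs, at 17.5, 20.3 and 14.9 TPM in the A-MSCs and at 28.6, 27.9 and 26.6 TPM in the P-MSCs. The A-MSC libraries lay below all others, and the fBM-MSC libraries lay above all others without overlap. The mean was 36.9 ± 5.73 TPM (SD, n = 3) in fBM-MSCs and 17.5 ± 2.74 TPM (SD, n = 3) in A-MSCs, a log2 difference of 1.01 ± 0.13 (SE, edgeR adjusted p = 0.000103). fBM-MSCs were also above P-MSCs by 0.54 ± 0.12 on the log2 scale (edgeR adjusted p = 0.00406). vBM-MSCs and P-MSCs, neighbours in the order of levels, did not differ beyond their spread, at 0.13 ± 0.14 on the log2 scale (edgeR adjusted p = 0.499). Between the bone marrow sites the difference, at 0.41 ± 0.14 on the log2 scale, missed the threshold (edgeR adjusted p = 0.0784) and passed it without fBM-MSC replicate 1 (0.0407) or with DESeq2 (0.0470). A-MSCs lay below P-MSCs by a log2 difference of -0.48 ± 0.12 (edgeR adjusted p = 0.0141), a call lost without A-MSC replicate 3 (0.0618) or P-MSC replicate 1 (0.0509). Wnt5a lies on chr14:28504543-28527448, plus strand, of GRCm38 (mm10).

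Wnt4, Wnt5b and Wnt10b were scarce ligands, each with its highest mean in fBM-MSCs, and rested on few counts. Wnt4, a ligand known from kidney and gonad development, measured 0.27, 0.96 and 2.04 TPM in the fBM-MSCs, 0.07 and 0.50 TPM in the vBM-MSCs, 0.30, 0.57 and 0.20 TPM in the A-MSCs, and 0.05, 0.00 and 0.00 TPM in the P-MSCs. The P-MSC libraries, with 5 counts in all, lay below every other library, while the other 3 tissues overlapped. Wnt4 was higher in fBM-MSCs than in P-MSCs by 5.95 ± 1.32 on the log2 scale (edgeR adjusted p = 0.00317), and this value was 9.51 without P-MSC replicate 1, the only P-MSC library with a Wnt4 count, and 5.11 without fBM-MSC replicate 3. A-MSCs exceeded P-MSCs by 4.41 ± 1.27 on the log2 scale (edgeR adjusted p = 0.0220), a value of 7.97 without P-MSC replicate 1. That call was lost without A-MSC replicate 2 (0.0582), P-MSC replicate 2 (0.0726) or P-MSC replicate 3 (0.0732), and with limma-trend on log2(TPM + 1) (0.254). vBM-MSCs exceeded P-MSCs by 3.92 ± 1.32 on the log2 scale (edgeR adjusted p = 0.0357), a call that was lost without vBM-MSC replicate 2 (0.366), P-MSC replicate 2 (0.0982) or P-MSC replicate 3 (0.0989), and whose value was 4.69 without vBM-MSC replicate 1 and 7.48 without P-MSC replicate 1. In bone marrow against non-bone marrow Wnt4 was higher by 2.73 ± 0.84 on the log2 scale (edgeR adjusted p = 0.0189). This value was 1.78 without vBM-MSC replicate 2, where the call was lost (adjusted p = 0.153), and 4.51 without P-MSC replicate 1, and limma-trend on log2(TPM + 1) gave 0.43 (adjusted p = 0.0931). limma-trend on log2(TPM + 0.1) gave 1.30 (adjusted p = 0.0514) for this contrast. For vBM-MSCs against P-MSCs, limma-trend gave 0.32 (adjusted p = 0.423) on log2(TPM + 1) and 1.48 (adjusted p = 0.141) on log2(TPM + 0.1). With the replicate number as a block in the edgeR fit, vBM-MSCs against P-MSCs (3.54, adjusted p = 0.103) and bone marrow against non-bone marrow (2.51, adjusted p = 0.0593) were not called.

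Wnt5b, the closest relative of Wnt5a, measured 3.32, 2.55 and 1.71 TPM in the fBM-MSCs and 0.97 and 2.15 TPM in the vBM-MSCs. It measured 0.10, 0.36 and 0.79 TPM in the A-MSCs and 0.97, 0.73 and 0.26 TPM in the P-MSCs. All fBM-MSC libraries lay above all A-MSC and P-MSC libraries, and vBM-MSC replicate 1 equalled the highest P-MSC library. Bone marrow was above non-bone marrow by 1.94 ± 0.55 on the log2 scale (edgeR adjusted p = 0.0124), a call lost without vBM-MSC replicate 2 (0.0517). fBM-MSCs exceeded A-MSCs by 2.52 ± 0.76 on the log2 scale (edgeR adjusted p = 0.0208), which was lost without fBM-MSC replicate 1 (0.0573) or A-MSC replicate 2 (0.0612) and reached 3.29 without A-MSC replicate 3. fBM-MSCs exceeded P-MSCs by 2.12 ± 0.75 on the log2 scale (edgeR adjusted p = 0.0357). That call was lost without fBM-MSC replicate 1 (0.0957), fBM-MSC replicate 2 (0.0686), P-MSC replicate 2 (0.0818) or P-MSC replicate 3 (0.113). It was also lost with the replicate number as a block (edgeR adjusted p = 0.0622). Wnt5b (chr6:119432531-119544824, minus strand) overlaps 4 annotated genes, among them Fbxl14, and the library method does not keep the strand, so reads from shared stretches cannot be assigned by strand.

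Wnt10b measured 1.23, 1.43 and 1.91 TPM in the fBM-MSCs and 0.52 and 0.17 TPM in the vBM-MSCs. It measured 0.09, 0.27 and 0.00 TPM in the A-MSCs and 0.14, 0.12 and 0.02 TPM in the P-MSCs. The fBM-MSC libraries lay above all others, and the remaining tissues overlapped. fBM-MSCs exceeded P-MSCs by 4.11 ± 1.15 on the log2 scale (edgeR adjusted p = 0.0119) and A-MSCs by 3.54 ± 1.12 (edgeR adjusted p = 0.0252). The latter call was lost without fBM-MSC replicate 3 (0.0539) or A-MSC replicate 1 (0.0737), and its value was 4.95 without A-MSC replicate 2. Between fBM-MSCs and vBM-MSCs the log2 difference of 2.15 ± 1.21 missed the threshold (edgeR adjusted p = 0.276), although limma-trend on log2(TPM + 1) gave an adjusted p of 0.00608. Bone marrow exceeded non-bone marrow by 2.75 ± 0.81 on the log2 scale (edgeR adjusted p = 0.0151). That call was lost without vBM-MSC replicate 1 (0.0690) and its value was 3.46 without A-MSC replicate 2.

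Open chromatin at these ligand genes is given as summits, the highest points of MACS2 peaks, with the fold enrichment over the background of the genome and a −log10 q that was at least 7 in the study's own selection. Within 1 kb of the Wnt4 start, a region at -0.393 kb had a fold enrichment of 9.57 for vBM-MSCs, followed by A-MSCs (6.25), fBM-MSCs (5.52) and P-MSCs (3.68), and the P-MSC summit (−log10 q of 3.0) was the one below that threshold. P-MSCs were also the tissue with the lowest Wnt4 level. Not all Wnt4 regions followed the RNA. That at 20.3 kb, in an exon, passed the threshold in P-MSCs alone (6.25). At 39.0 kb P-MSCs (10.7) and A-MSCs (12.5) stood above fBM-MSCs (4.78) and vBM-MSCs (5.89). At Wnt10b, a region at -0.921 kb from the start was listed in fBM-MSCs (fold enrichment 7.36) and, below the threshold, in P-MSCs (3.68), and in neither of the other lists. Other Wnt10b regions did not follow the RNA, such as that at -2.58 kb, at 16.9 in P-MSCs and 14.3 in A-MSCs beside 7.73 in fBM-MSCs and 4.42 in vBM-MSCs, and that at -2.15 kb, at 12.1 in fBM-MSCs and 11.8 in P-MSCs. The peak lists were pooled over replicates, so these differences have no replicate check. The 250 bases before the starts of Wnt4 (chr4:137277385-137277634, plus strand) and Wnt10b (chr15:98778151-98778400, minus strand) are shown as the stretches next to the starts. The summits above lie farther out, so the letters below are not those of the regions that differ between lists. Both were taken from RefSeq on GRCm38.p6 and are printed 5′ to 3′ on the strand of the gene.
Wnt4: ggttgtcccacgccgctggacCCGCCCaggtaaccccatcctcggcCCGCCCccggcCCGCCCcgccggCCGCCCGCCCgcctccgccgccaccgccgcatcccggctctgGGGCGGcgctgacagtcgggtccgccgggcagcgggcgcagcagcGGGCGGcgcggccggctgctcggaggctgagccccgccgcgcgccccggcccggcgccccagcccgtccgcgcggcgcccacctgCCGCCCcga
Wnt10b: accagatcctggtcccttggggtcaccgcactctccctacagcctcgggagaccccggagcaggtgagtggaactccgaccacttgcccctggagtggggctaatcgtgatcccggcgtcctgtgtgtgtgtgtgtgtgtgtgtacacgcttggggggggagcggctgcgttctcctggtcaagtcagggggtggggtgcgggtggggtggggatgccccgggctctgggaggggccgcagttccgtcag
Capitals mark matches to any of 6 motifs, searched on both strands. The letters were TATAAA for a TATA box and, for the site of Sp1-like factors known as the GC box, GGGCGG. For AP-1 factors they were TGANTCA, where N is any base, and for the RUNX factors of bone and blood TGTGGT. Those of the TCF/LEF factors, the nuclear partners of beta-catenin, were CTTTGAT, and the GATA factors were searched by AGATAA. The Wnt4 stretch, with a GC content of 85.2%, held matches to the GC box alone, some of them overlapping, and the Wnt10b stretch (GC content 66.8%) held no match. Of the 250-base stretches before all 32851 RefSeq starts, 32.7% held a GC box, 12.4% a TATA box, 14.0% the RUNX letters, 9.99% the GATA letters, 6.75% the AP-1 letters and 3.21% the TCF/LEF letters.

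Rspo3, the R-spondin among the members, was lowest in A-MSCs. It measured 1.62, 2.72 and 7.28 TPM in the fBM-MSCs, 3.30 and 6.44 TPM in the vBM-MSCs, 0.26, 1.14 and 1.08 TPM in the A-MSCs and 5.39, 4.35 and 4.26 TPM in the P-MSCs. All A-MSC libraries lay below all others, and the fBM-MSCs, vBM-MSCs and P-MSCs overlapped. A-MSCs were below P-MSCs, with a log2 difference of -2.29 ± 0.61 (edgeR adjusted p = 0.0149). fBM-MSCs exceeded A-MSCs by 2.15 ± 0.61 on the log2 scale (edgeR adjusted p = 0.0149), a value of 1.30 and no call without fBM-MSC replicate 3 (0.0754). vBM-MSCs exceeded A-MSCs by 2.41 ± 0.65 (edgeR adjusted p = 0.0191), a call lost without vBM-MSC replicate 2 (0.108). The pooled contrast of bone marrow with non-bone marrow, 1.13 ± 0.43 on the log2 scale (edgeR adjusted p = 0.0486), was the weakest of the 7 calls. It was lost without fBM-MSC replicate 3 (0.134), vBM-MSC replicate 2 (0.158), A-MSC replicate 1 (0.0742), A-MSC replicate 3 (0.0542) or P-MSC replicate 1, 2 or 3 (0.0717, 0.0920 and 0.0943), with no scaling factors (0.0549) and with limma-trend on log2(TPM + 1) (0.0820) or log2(TPM + 0.1) (0.0693), and P-MSCs stood at the level of both bone marrow groups. Upstream of Rspo3 (chr10:29453106-29535867, minus strand), the strongest of its 11 regions, at -18.8 kb, was listed in all 4 tissues, with a fold enrichment of 33.1 in P-MSCs and 26.9 in A-MSCs, above the 15.8 of vBM-MSCs and the 12.1 of fBM-MSCs.

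Dkk3, the most abundant of the 10 genes, separated bone marrow from non-bone marrow without overlap. It measured 76.0, 111 and 187 TPM in the fBM-MSCs and 82.7 and 117 TPM in the vBM-MSCs. It measured 5.73, 6.19 and 5.03 TPM in the A-MSCs and 11.9, 12.2 and 19.1 TPM in the P-MSCs. The lowest bone marrow library thus lay above the highest P-MSC library, and all P-MSC libraries lay above all A-MSC libraries. Bone marrow exceeded non-bone marrow by 3.63 ± 0.22 on the log2 scale (edgeR adjusted p = 3.8e-07), a 12.4-fold difference. The 2 bone marrow sites did not differ beyond their spread (log2 difference 0.37 ± 0.31, edgeR adjusted p = 0.475). A-MSCs were below P-MSCs by a log2 difference of -1.15 ± 0.29 (edgeR adjusted p = 0.0111), and this call was lost without P-MSC replicate 3 (0.0513).

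Sfrp4, a Frizzled-related inhibitor whose loss in humans impairs cortical bone, was high in the bone marrow libraries, near or at 0 in the others, and varied widely within them. It measured 15.8, 33.6 and 82.7 TPM in the fBM-MSCs and 3.84 and 28.6 TPM in the vBM-MSCs. In the A-MSCs it measured 0.00, 0.17 and 0.00 TPM, from 7 counts in all, and in the P-MSCs 0.79, 0.00 and 0.00 TPM, from 34 counts, beside 4709 counts in the fBM-MSCs and 1165 in the vBM-MSCs. Every bone marrow library lay above every non-bone marrow library, while fBM-MSCs and vBM-MSCs overlapped. Bone marrow exceeded non-bone marrow by 7.57 ± 0.93 on the log2 scale (edgeR adjusted p = 5.34e-05). The size of this difference rested on single libraries, with values of 6.62 without vBM-MSC replicate 2, 9.70 without A-MSC replicate 2 and 10.7 without P-MSC replicate 1, and limma-trend on log2(TPM + 1) gave 4.21. All adjusted p-values over the alternatives were at most 0.000467. fBM-MSCs and vBM-MSCs did not differ beyond their spread (log2 difference 1.55 ± 1.0, edgeR adjusted p = 0.343).

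The summed levels of marker genes of the osteoblast, the bone-forming cell, and of the chondrocyte, the cartilage cell, were higher in all bone marrow libraries than in the others, as were Dkk3 and Sfrp4. The summed level of 8 osteoblast markers (Sp7, Bglap, Bglap2, Ibsp, Dmp1, Phex, Alpl, Runx2) was 689, 1235 and 4157 TPM in the fBM-MSCs and 43.9 and 614 TPM in the vBM-MSCs. In the A-MSCs it was 3.46 to 5.85 TPM and in the P-MSCs 2.40 to 3.49 TPM, with 2 to 6 and 4 to 5 of the 8 genes at 0. Among the 5 bone marrow libraries, fBM-MSC replicate 3 was highest and vBM-MSC replicate 1 lowest in both the marker sum and Sfrp4, and fBM-MSC replicate 3 was also highest in Dkk3, whose lowest bone marrow value was in fBM-MSC replicate 1 (76.0 TPM). The summed level of 7 chondrocyte markers (Acan, Col2a1, Sox9, Col10a1, Comp, Matn3, Hapln1) was 52.0, 17.8 and 108 TPM in the fBM-MSCs and 131 and 201 TPM in the vBM-MSCs, beside 9.54 to 11.4 TPM in the A-MSCs and 1.91 to 8.69 TPM in the P-MSCs. Comp (means of 44.2 and 103 TPM in the fBM-MSCs and vBM-MSCs) made up most of this sum, while Sox9 was lower in the fBM-MSCs (7.86 TPM) than in the A-MSCs (9.48 TPM) and Matn3 was at 0 in the fBM-MSCs and at 0.63 TPM in the A-MSCs. Without fBM-MSC replicate 3, Sfrp4 remained called in fBM-MSCs against A-MSCs (8.50 on the log2 scale, from 9.35, edgeR adjusted p = 0.000840) and against P-MSCs (6.52, from 7.35, edgeR adjusted p = 0.00110). These values moved further to 13.6 against A-MSCs without A-MSC replicate 2 and to 13.6 against P-MSCs without P-MSC replicate 1, the libraries that held the counts. Markers of dividing cells split the libraries as cleanly in the opposite direction, with a summed level of 30.0 to 59.9 TPM in the bone marrow libraries and 252 to 520 TPM in the others. The part of osteoblast-lineage, cartilage or dividing cells in these levels was not tested.

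**Figure D2:**
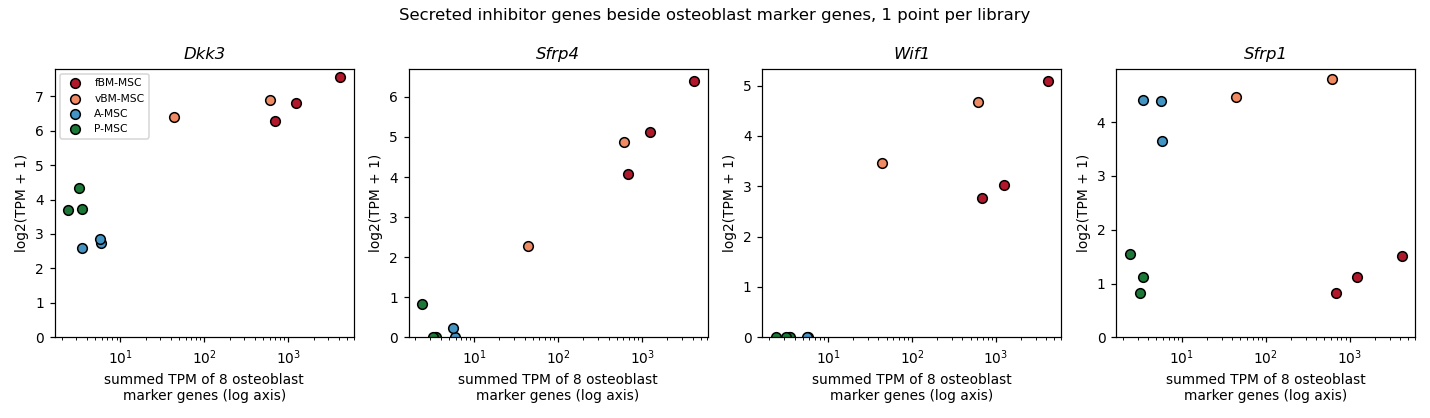
Summed TPM of 8 osteoblast marker genes (horizontal, log axis) and the level of Dkk3, Sfrp4, Wif1 and Sfrp1 as log2(TPM + 1) (vertical axis), 1 point per library. The 5 bone marrow libraries lie at marker sums of 43.9 to 4157 TPM and the 6 others at 2.40 to 5.85 TPM. Dkk3 and Sfrp4 are high in the bone marrow libraries, while Sfrp1 is high in vBM-MSCs and A-MSCs.

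Around Dkk3 (chr7:112116019-112159482, minus strand), 14 regions within 50 kb of the gene held a summit at the threshold in at least 1 list, where summits up to 250 bases apart were joined into a region. No list had such a summit within 1 kb of a Dkk3 start. Of the 14, 9 were listed in all 4 tissues, and 1, at -26.0 kb, was listed in the bone marrow tissues alone, with a fold enrichment of 9.20 in fBM-MSCs and 15.5 in vBM-MSCs (−log10 q of 17.5 and 39.0). It lies between genes, and the nearest start is that of Dkk3. Another region went the other way, at 75.9 kb in an intron of Usp47, listed in A-MSCs (9.56) and P-MSCs (16.9) alone. Around Sfrp4 (chr13:19623175-19632825, plus strand), 11 regions were found, of which 3 were listed in the bone marrow tissues alone, at 1.12, 13.1 and 17.3 kb from the start, the latter pair past the threshold in 1 list each. The one at 1.12 kb, in an intron, had a fold enrichment of 9.93 in fBM-MSCs and 5.89 in vBM-MSCs. At the Sfrp4 start itself the order was the opposite of that of the RNA, with the region at -0.174 kb at a fold enrichment of 7.73 in A-MSCs and 5.52 in P-MSCs, and at 4.41 in fBM-MSCs and 4.78 in vBM-MSCs. Of all 102552 regions of the genome, 4.65% were listed in fBM-MSCs and vBM-MSCs alone and 48.3% in all 4 tissues. The windows of 151 bases around the strongest summit of the Dkk3 region (chr7:112185388-112185538, minus strand) and of the intronic Sfrp4 region (chr13:19624220-19624370, plus strand) follow from GRCm38, 5′ to 3′ on the strand of the gene. They are shown because their listing follows the level of the RNA, and were chosen after their values were seen.
Dkk3 -26.0 kb: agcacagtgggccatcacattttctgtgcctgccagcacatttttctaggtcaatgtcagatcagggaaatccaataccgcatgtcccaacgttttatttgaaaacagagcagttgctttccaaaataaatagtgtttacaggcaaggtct
Sfrp4 intron: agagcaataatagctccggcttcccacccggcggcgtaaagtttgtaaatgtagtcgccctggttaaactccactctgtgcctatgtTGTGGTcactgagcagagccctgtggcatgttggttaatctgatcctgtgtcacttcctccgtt
The Dkk3 window (GC content 42.4%) held no match to the 6 motifs, and the Sfrp4 window (51.0%) held 1 match to the RUNX letters. Of the windows of this length around the strongest summit of all regions, 16.2% held the RUNX letters, 27.1% the AP-1 letters, 11.3% a GC box, 6.63% a TATA box, 6.39% the GATA letters and 1.75% the TCF/LEF letters.

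Sfrp1, a Frizzled-related inhibitor expressed in bone and fat, followed neither side of the split into bone marrow and non-bone marrow. It measured 21.02 and 26.8 TPM in the vBM-MSCs and 11.5, 20.1 and 20.2 TPM in the A-MSCs. It measured only 0.78, 1.2 and 1.85 TPM in the fBM-MSCs and 1.93, 1.18 and 0.78 TPM in the P-MSCs. All vBM-MSC and A-MSC libraries lay above all fBM-MSC and P-MSC libraries. Sfrp1 was the one member that differed between the bone marrow sites, lower in fBM-MSCs by a log2 difference of -4.16 ± 0.41 (edgeR adjusted p = 0.000169), a 17.9-fold difference. A-MSCs exceeded P-MSCs by 3.92 ± 0.39 on the log2 scale (edgeR adjusted p = 5.12e-05), a 15.2-fold difference. In the order of levels, vBM-MSCs and A-MSCs did not differ beyond their spread (log2 difference 0.35 ± 0.37, edgeR adjusted p = 0.539), nor did fBM-MSCs and P-MSCs (0.11 ± 0.37, edgeR adjusted p = 0.834). The pooled contrast of bone marrow with non-bone marrow was 0.23 ± 0.26 on the log2 scale (edgeR adjusted p = 0.506).

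The summed level of 8 smooth muscle markers, among them Acta2 and Tagln, was 12438 to 13024 TPM in the A-MSCs and 6231 to 7751 TPM in the vBM-MSCs, and so high in the tissues with high Sfrp1. It was 4574 to 5303 TPM in the P-MSCs, where Sfrp1 was low, and 1093 to 1480 TPM in the fBM-MSCs. Acta2 (means of 5014 TPM in the vBM-MSCs and 3147 TPM in the P-MSCs) and Tagln (1749 and 1486 TPM) made up most of this sum. Like Acta2 and Tagln, Mylk was higher in the vBM-MSCs than in the P-MSCs by mean level. Myh11, Cnn1, Smtn, Des and Lmod1 were lower there, such as Cnn1 (183 and 228 TPM) and Des (0.99 and 6.96 TPM). The summed level of 8 mesothelial markers was 81.6 to 97.2 TPM in the A-MSCs and 9.26 to 12.3 TPM in the vBM-MSCs. In the tissues with low Sfrp1 it was 54.8 to 64.0 TPM (P-MSCs) and 1.84 to 11.1 TPM (fBM-MSCs). Outside the A-MSCs most of this sum was Krt19, with means of 54.9 TPM in the P-MSCs, 10.45 TPM in the vBM-MSCs and 5.88 TPM in the fBM-MSCs. In the P-MSCs 3 to 5 of the 8 genes were at 0, and in the A-MSCs 0. The defining marker Wt1 was at 0 in all libraries but those of the A-MSCs (10.6 to 14.9 TPM). The part of such cells in the Sfrp1 level was not tested.

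Sfrp1 (chr8:23411383-23449632, plus strand) had 9 regions within 50 kb of the gene. Its promoter was open in all 4 tissues, with fold enrichments at -0.057 kb of 8.83 and 10.3 in the fBM-MSC and vBM-MSC lists and of 14.3 and 15.1 in the A-MSC and P-MSC lists, so the start of the gene was listed as strongly in P-MSCs as in A-MSCs. An intronic region at 28.9 kb was listed in vBM-MSCs (fold enrichment 11) and A-MSCs (7.73) alone, the tissues with high Sfrp1 RNA, and at no level in the other lists. A further intronic region, at 24.1 kb, passed the threshold in vBM-MSCs (5.52) and A-MSCs (6.99) and was listed below it in P-MSCs (4.78). The remaining intronic region, at 17.4 kb, did not follow the RNA, since it was lowest in vBM-MSCs (6.62) and stood at 13.2 in fBM-MSCs and at 14.7 in both A-MSCs and P-MSCs. Of all regions of the genome, 2.36% were listed in vBM-MSCs and A-MSCs alone. The window around the strongest summit of the region at 28.9 kb (chr8:23440330-23440480, plus strand, GRCm38) is shown for the same reason as above, and was likewise chosen after its values were seen.
Sfrp1 intron: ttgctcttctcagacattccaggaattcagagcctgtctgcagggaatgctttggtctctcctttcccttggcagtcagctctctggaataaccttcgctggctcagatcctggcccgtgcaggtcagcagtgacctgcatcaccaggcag
It held no match to the 6 motifs, at a GC content of 55.0%.

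**Figure D3:**
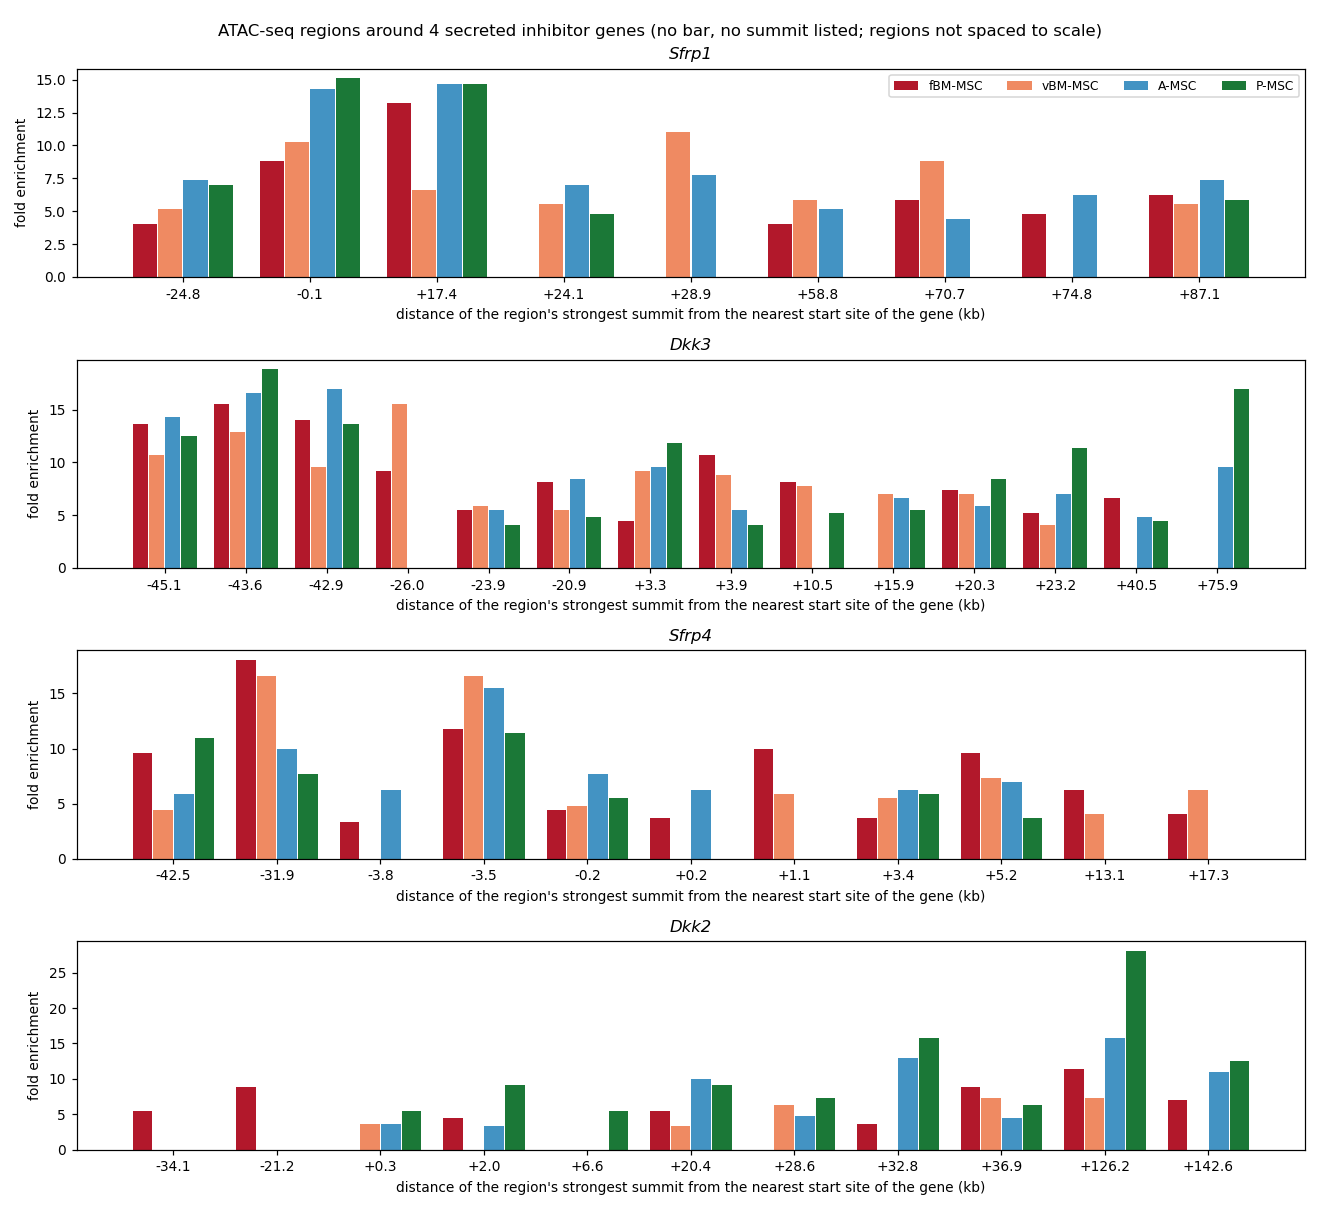
ATAC-seq regions within 50 kb of Sfrp1, Dkk3, Sfrp4 and Dkk2, by the distance of their strongest summit from the nearest start site of the gene in kb (horizontal axis, not spaced to scale) and the fold enrichment in each tissue (vertical axis, linear from 0). A missing bar means that the list held no summit in the region. The region at +28.9 kb of Sfrp1 has bars for vBM-MSCs and A-MSCs (11 and 7.73) and that at -26.0 kb of Dkk3 for fBM-MSCs and vBM-MSCs (9.20 and 15.5).

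Dkk2, a Dickkopf protein that binds the Lrp co-receptors, was a P-MSC transcript. It measured 8.84, 10.5 and 9.32 TPM in the P-MSCs, 0.85, 1.07 and 0.14 TPM in the fBM-MSCs, 0.00 and 0.69 TPM in the vBM-MSCs and 0.00, 0.30 and 0.06 TPM in the A-MSCs. The P-MSC libraries lay far above all others, which overlapped. Against P-MSCs, the log2 difference was -3.70 ± 1.04 for fBM-MSCs (edgeR adjusted p = 0.0120), -4.73 ± 1.30 for vBM-MSCs (edgeR adjusted p = 0.0139) and -6.06 ± 1.19 for A-MSCs (edgeR adjusted p = 0.00321), and all of these calls held in all alternatives. Their sizes moved with single libraries that held the few counts, for vBM-MSCs to -3.79 without replicate 1 and -12.5 without replicate 2, and for A-MSCs to -8.05 without replicate 2. fBM-MSCs, vBM-MSCs and A-MSCs did not differ from each other beyond their spread (edgeR adjusted p of 0.114 to 0.613), except that fBM-MSCs passed against A-MSCs without A-MSC replicate 2 (edgeR adjusted p = 0.0432). The pooled contrast, in which A-MSCs and P-MSCs are averaged, was -1.19 ± 0.81 on the log2 scale (edgeR adjusted p = 0.251) and passed without vBM-MSC replicate 2 (-5.07, edgeR adjusted p = 0.0216) and with limma-trend on log2(TPM + 1) (-1.23, adjusted p = 0.00022) or log2(TPM + 0.1) (-1.65, adjusted p = 0.0389). P-MSCs were also the tissue with the highest summed level of 8 markers of dividing cells, at 467 to 520 TPM beside 252 to 274 TPM in the A-MSCs and 30.0 to 59.9 TPM in both bone marrow groups, whose part in the Dkk2 level was not tested.

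At Dkk2 (chr3:132085266-132180304, plus strand), the region at the start, at 0.288 kb, passed the threshold in the P-MSC list alone. Its fold enrichment was 5.52 in P-MSCs and 3.68 in both vBM-MSCs and A-MSCs, and fBM-MSCs had no summit there. At 1.97 kb P-MSCs stood at 9.20, beside 4.41 in fBM-MSCs and 3.31 in A-MSCs, and at 6.56 kb, in an intron, P-MSCs alone had a summit (5.52). Not all of its 11 regions followed this order, since at 36.9 kb fBM-MSCs were highest (8.83), and 2 regions before the gene, at -34.1 and -21.2 kb, were listed in fBM-MSCs alone. Of all regions of the genome, 2.74% were listed in P-MSCs alone. The 250 bases before the start (chr3:132085042-132085291, plus strand) and the window of the intronic region at 6.56 kb (chr3:132091774-132091924, plus strand) are shown, the latter chosen after its values were seen. The summit at 0.288 kb lies outside the promoter stretch.
Dkk2 promoter: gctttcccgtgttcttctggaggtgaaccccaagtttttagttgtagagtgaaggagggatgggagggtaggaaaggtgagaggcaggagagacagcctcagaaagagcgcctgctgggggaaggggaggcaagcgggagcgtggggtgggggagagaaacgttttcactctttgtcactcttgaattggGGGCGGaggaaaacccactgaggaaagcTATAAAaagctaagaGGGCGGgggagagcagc
Dkk2 intron: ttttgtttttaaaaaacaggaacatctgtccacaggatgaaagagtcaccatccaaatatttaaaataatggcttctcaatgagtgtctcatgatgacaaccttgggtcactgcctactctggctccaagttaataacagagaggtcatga
The promoter stretch held 1 TATA box and, on either side of it, a GC box, and the intronic window held no match to the 6 motifs.

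Sfrp2, a Frizzled-related inhibitor, was scarce and missed the threshold among the 4 tissues (edgeR adjusted p = 0.0739). It passed with DESeq2 (0.0198), with limma-trend on log2(TPM + 0.1) (0.0339) and without A-MSC replicate 1 (0.0419) or 3 (0.0316). It measured 0.51, 2.37 and 2.20 TPM in the fBM-MSCs, 0.45 and 1.05 TPM in the vBM-MSCs, 0.05, 0.35 and 2.03 TPM in the A-MSCs and 0.18, 0.03 and 0.00 TPM in the P-MSCs. The P-MSC libraries lay below those of both bone marrow groups, and the A-MSC libraries spread over the range of all. Only fBM-MSCs against P-MSCs passed, at 4.6 ± 1.41 on the log2 scale (edgeR adjusted p = 0.0185), and this call was lost without P-MSC replicate 2 (0.0672) or 3 (0.0577), while the value was 6.86 without P-MSC replicate 1. With the replicate number as a block the call was lost too (edgeR adjusted p = 0.0594). Bone marrow against non-bone marrow, at 2.16 ± 0.92 on the log2 scale (edgeR adjusted p = 0.0746), passed without A-MSC replicate 3 (3.16, 0.0172) or P-MSC replicate 1 (3.29, 0.0328), with DESeq2 (0.0361) and with limma-trend on log2(TPM + 0.1) (0.0291). A-MSCs against P-MSCs (3.65 ± 1.37, edgeR adjusted p = 0.0638) passed without A-MSC replicate 1 (0.0353) or P-MSC replicate 1 (0.0454) and with DESeq2 (0.0130), and vBM-MSCs against P-MSCs (3.37 ± 1.43, edgeR adjusted p = 0.0842) passed without P-MSC replicate 1 (5.63, 0.0455) and with DESeq2 (0.0371). No list had a summit at the threshold within 1 kb of the Sfrp2 start (chr3:83765750-83774314, plus strand). The region nearest to it, at -2.0 kb, had fold enrichments of 10.3 for A-MSCs and 9.56 for P-MSCs, above the 6.25 of vBM-MSCs and the 4.78 of fBM-MSCs.

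**Figure D4:**
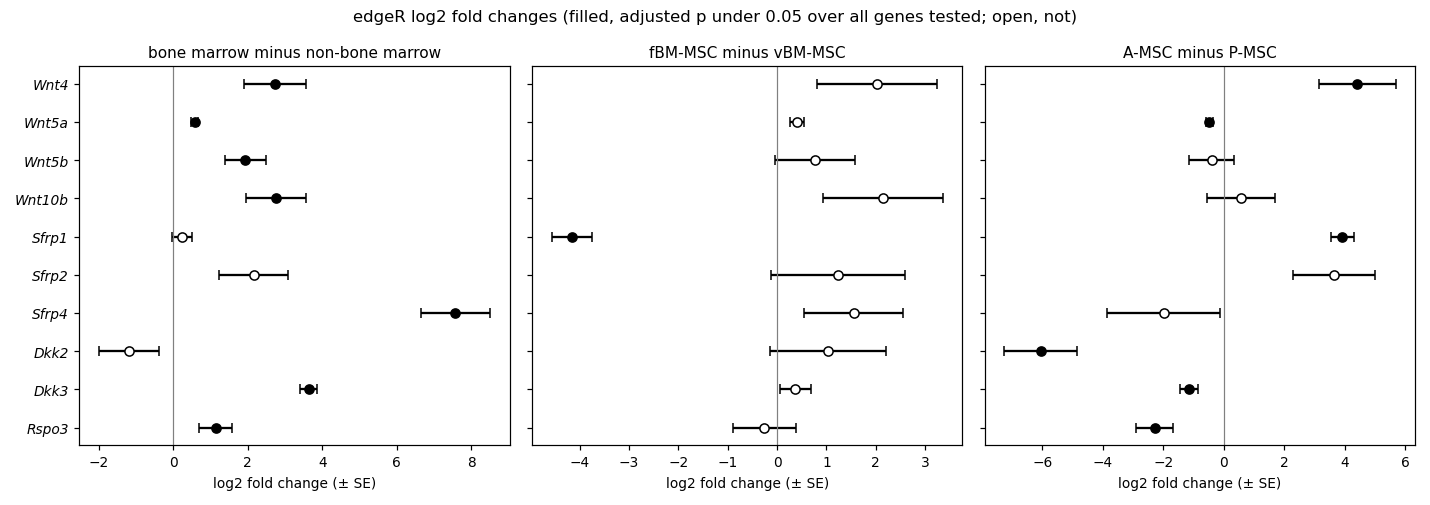
Log2 fold change (horizontal axis) with its SE from edgeR for the 10 genes in bone marrow minus non-bone marrow, fBM-MSCs minus vBM-MSCs and A-MSCs minus P-MSCs. Filled points had an adjusted p under 0.05 over all genes tested. Sfrp4 (7.57) and Dkk3 (3.63) lie far to the bone marrow side of the first panel, Sfrp1 is the filled point of the second (-4.16), and Sfrp1 (3.92) and Dkk2 (-6.06) lie on opposite sides of the third.

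By role, both the ligands and the inhibitors summed to more TPM in the bone marrow libraries. The inhibitor with the largest share was Dkk3 in all tissues but the A-MSCs, where it was Sfrp1. Dkk3 was counted here by its family, and is not known for the Lrp binding of Dkk1 and Dkk2. The 19 Wnt ligand genes summed to 61.3 to 86.6 TPM in the fBM-MSCs and 63.8 to 74.9 TPM in the vBM-MSCs, beside 29.9 to 35.0 TPM in the A-MSCs and 30.3 to 33.3 TPM in the P-MSCs. The 15 secreted inhibitor genes summed to 104 to 329 TPM in the fBM-MSCs and 122 to 203 TPM in the vBM-MSCs, beside 21.8 to 34.1 TPM in the A-MSCs and 25.5 to 30.8 TPM in the P-MSCs. Dkk3 made up 57.0% to 73.2% of the inhibitor sum in the fBM-MSCs and 57.5% to 68.0% in the vBM-MSCs. Sfrp1 made up 52.7% to 65.8% of it in the A-MSCs, and in the P-MSCs Dkk3 made up 46.5% to 61.9%, followed by Dkk2. The R-spondins summed to 10.1 to 21.9 TPM in the fBM-MSCs and 18.5 to 21.3 TPM in the vBM-MSCs, beside 0.52 to 1.86 TPM in the A-MSCs and 5.15 to 6.61 TPM in the P-MSCs. These sums are descriptions, and they were not tested.

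**Figure D5:**
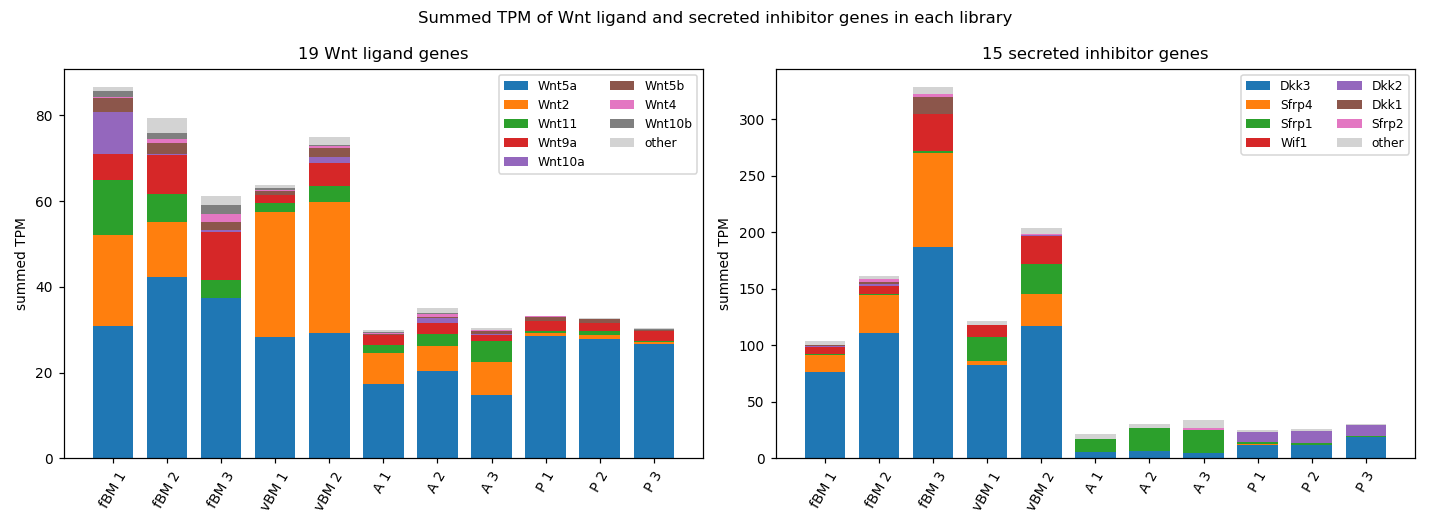
Stacked TPM (vertical axis, linear from 0) of 19 Wnt ligand genes (left) and 15 secreted inhibitor genes (right) in each of the 11 libraries. Wnt5a leads the ligand bars, except that Wnt2 (29.1 and 30.7 TPM) is slightly larger in both vBM-MSC libraries. The inhibitor bars of the bone marrow libraries (104 to 329 TPM) are mostly Dkk3, those of the A-MSCs mostly Sfrp1.

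The other 89 genes of the Wnt pathway, in 9 lists, were read from the same fit. Of these, 60 could be tested and 39 (65.0%) differed among the 4 tissues, a share near the 60.6% of all genes tested. Between bone marrow and non-bone marrow, 29 were higher in bone marrow and 7 lower, beside 24.8% and 22.4% of all genes tested. Of the 29, 8 (Wnt7b, Wnt10a, Dkk1, Wif1, Lgr5, Pygo1, Tcf7 and Daam2) passed the filter on low counts through bone marrow libraries alone, so that the filter favoured this direction for them. Of the 50 that passed on both sides, 21 were higher and 7 lower. All 5 of the other Wnt ligands that could be tested were higher in bone marrow, as were both genes of Wnt secretion and all 4 of the R-spondin receptors and E3 ligases tested, while Rnf43 was too scarce to be tested. Wnt7b, Wnt10a and Lgr5 are among the 8 above, so these counts are no support for a direction. Of the 3 other secreted inhibitors tested, Wif1 and Dkk1, also among the 8, were higher and Frzb was lower. Of 16 receptors and co-receptors tested, 5 were higher and 3 lower, and of 16 intracellular transducers, 4 were higher and 1 lower. Of the feedback targets 3 of 6 were higher and none lower, and of the planar polarity genes 3 of 7 were higher and 2 lower. Axin2, the general feedback target of beta-catenin signalling, was too scarce to be tested.

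Among the other ligands, Wnt2 was the most abundant in the vBM-MSCs and A-MSCs, at 29.1 and 30.7 TPM in the vBM-MSCs, 7.16, 5.82 and 7.72 TPM in the A-MSCs, and 0.62, 0.95 and 0.53 TPM in the P-MSCs. In the fBM-MSCs it spread from 21.1 and 12.7 TPM to 0.10 TPM in replicate 3, where Wnt9a (11.05 TPM) and Wnt11 (4.11 TPM) exceeded it, and Wnt9a exceeded it in all P-MSC libraries (2.32, 1.87 and 2.38 TPM). Wnt2 was higher in bone marrow by 3.07 ± 0.73 on the log2 scale (edgeR adjusted p = 0.00469). Wnt9a (1.36 ± 0.25, edgeR adjusted p = 0.00106) and Wnt11 (1.83 ± 0.41, edgeR adjusted p = 0.00327) were higher in bone marrow too, with means of 8.77 and 7.88 TPM in the fBM-MSCs. The mean of Wnt11 in the vBM-MSCs (2.92 TPM) was however below that in the A-MSCs (3.12 TPM), and that of Wnt9a was 3.63 TPM in the vBM-MSCs and 2.18 TPM in the A-MSCs. Porcn, the acyltransferase that adds the lipid to Wnt proteins, was higher by 2.04 ± 0.35 on the log2 scale (edgeR adjusted p = 0.000588).

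Wif1 and Dkk1, further inhibitors, had no count in any A-MSC or P-MSC library. Wif1, which binds Wnt proteins directly, measured 5.78, 7.10 and 32.9 TPM in the fBM-MSCs and 10.1 and 24.5 TPM in the vBM-MSCs, at least 294-fold higher than a floor of 3 counts in each of the 6 non-bone marrow libraries. Dkk1, the classical Lrp-binding inhibitor, measured 0.74, 2.51 and 15.5 TPM in the fBM-MSCs and 0.00 and 0.10 TPM in the vBM-MSCs, at least 73.0-fold higher in bone marrow over the same floor. Both were highest in fBM-MSC replicate 3, the library with the highest osteoblast marker sum of 4157 TPM, whose part in these levels was not tested. Without that library the bound of Dkk1 fell to 13.9-fold, and that of Wif1 was 212-fold, an alternative added after the data were seen. Dkk1 had 938 counts in the fBM-MSCs and 5 in the vBM-MSCs, so its bound is mostly one of the fBM-MSCs. Frzb, a Frizzled-related inhibitor like the Sfrp proteins, went the other way, at 4.53, 3.45 and 6.74 TPM in the A-MSCs and at most 2.40 TPM in every other library. It was lower in bone marrow by a log2 difference of -0.72 ± 0.25 (edgeR adjusted p = 0.0346) and lower in P-MSCs than in A-MSCs (1.63 ± 0.34 for A-MSCs minus P-MSCs, edgeR adjusted p = 0.00403), and it was named after its values were seen. Rspo2, the R-spondin that led in bone marrow, measured 8.26 to 12.8 TPM in the fBM-MSCs and 14.5 to 15.2 TPM in the vBM-MSCs, beside at most 0.06 TPM in the A-MSCs and 1.22 TPM in the P-MSCs (log2 difference 6.39 ± 0.34, edgeR adjusted p = 1.64e-07).

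On the receiving side, Lgr6, an R-spondin receptor, stood at 20.4, 39.6 and 64.7 TPM in the fBM-MSCs, beside 1.59 and 4.46 TPM in the vBM-MSCs and at most 1.32 TPM elsewhere. It was higher in bone marrow by 4.11 ± 0.43 on the log2 scale (edgeR adjusted p = 1.82e-05) and in fBM-MSCs above vBM-MSCs by 3.85 ± 0.66 (edgeR adjusted p = 0.00395). Its levels ranked the 3 fBM-MSC libraries and the 2 vBM-MSC libraries in the order of the osteoblast marker sum (689, 1235 and 4157 TPM, and 43.9 and 614 TPM), whose part in the level was not tested. Fzd1 (2.10 ± 0.21, edgeR adjusted p = 1.15e-05) and Kremen1, a co-receptor of Dickkopf proteins (1.49 ± 0.20, edgeR adjusted p = 9.58e-05), were higher in bone marrow. Ror1, a receptor of the branch without beta-catenin, was an A-MSC transcript at 4.74 to 6.31 TPM, beside at most 1.14 TPM in every other library, and was lower in bone marrow by a log2 difference of -1.70 ± 0.35 (edgeR adjusted p = 0.00212). Fzd6 differed among the 4 tissues (edgeR adjusted p = 0.00816) with its highest mean, 5.52 TPM, in P-MSCs and its lowest, 1.04 TPM, in A-MSCs. Nkd2 and Lef1, both induced by Wnt signalling in many tissues, were higher in bone marrow by 2.18 ± 0.32 (edgeR adjusted p = 0.000179) and 1.47 ± 0.39 (edgeR adjusted p = 0.00847) on the log2 scale. The mean of Lef1 was 5.74 TPM in the fBM-MSCs but 1.7 TPM in the vBM-MSCs, beside 1.18 TPM in the A-MSCs and 1.13 TPM in the P-MSCs. Of the same list Tcf7 was higher too, while Nkd1, with its highest mean in the A-MSCs (1.39 TPM), Bambi and Tnfrsf19 were not called.

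For each member, the genes with the most similar pattern were found by the root-mean-square difference of centred log2 CPM over the 11 libraries, among 5900 genes whose tissue means spanned at least 1 on that scale. Wnt5a was closest to Rap2b, with a difference of 0.13, and Foxo3 (0.16). Dkk3 was closest to Dgkg (0.38) and Cdkn2a (0.51), the latter with means of 106 and 58.2 TPM in the fBM-MSCs and vBM-MSCs and 4.09 and 14.8 TPM in the A-MSCs and P-MSCs. Sfrp1 was closest to Serping1 (0.58), with means of 4.09, 40.5, 33.6 and 2.20 TPM in fBM-MSCs, vBM-MSCs, A-MSCs and P-MSCs, and to Tnfaip6 (0.75). Wnt4 was closest to Kif26b (0.52) and Sorcs2 (0.69), Wnt5b to Def6 (0.60) and Ubxn11 (0.62), and Wnt10b to Aox1 (0.75) and Slc43a2 (0.78). Rspo3 was closest to Arid3b (0.57) and Dlk2 (0.59), and Sfrp2 to Psmb9 (0.85) and Car6 (0.86). The differences were largest for Sfrp4, to Mme (0.97) and Slitrk6 (1.15), and for Dkk2, to Mecom (1.26) and Lingo2 (1.43). They are not scaled to the span of a gene's tissue means, which was 8.62 for Sfrp4 and 6.64 for Dkk2, beside 1.02 for Wnt5a. How close a neighbour is can therefore not be compared between members.

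Over the 10 genes, a promoter summit at the threshold was found for 5, 4, 6 and 6 in the lists of fBM-MSCs, vBM-MSCs, A-MSCs and P-MSCs, beside 50.7%, 51.6%, 52.6% and 51.7% of 24963 genes. Wnt5a, Wnt5b and Sfrp1 had one in all 4 lists. Wnt5b has several starts, and its summit within 1 kb of one of them, at -0.454 kb, was listed in all 4 tissues (fold enrichments of 6.99 to 10.3). Wnt10b had one in fBM-MSCs alone, Dkk2 in P-MSCs alone, and Sfrp4 and Rspo3 in A-MSCs and P-MSCs. Sfrp2 and Dkk3 had none in any list, although Dkk3 was the most abundant of the 10 transcripts. Within 50 kb of the genes, 74, 69, 80 and 79 summits passed the threshold in fBM-MSCs, vBM-MSCs, A-MSCs and P-MSCs.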

How the data were processed

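RNA-seq covered 11 libraries of MSCs from 4 tissues of C57BL6/J mice, and vBM-MSC replicate 3 was not analysed here. The authors made Smart-seq2 libraries, aligned the reads with STAR to mm10 and deposited RSEM's expected counts and TPM per RefSeq gene symbol. Replicates were grouped as the labels give them, and p-values treat libraries as independent, although the tissues came from the same mice. Expected counts were rounded, and genes at 1 CPM or more in at least 2 libraries were tested with edgeR 4.0.16 (TMM factors, quasi-likelihood test, all 4 tissues in 1 fit, R 4.3.3) with Benjamini-Hochberg adjustment and a threshold of 0.05. The bone marrow contrast was the mean of both bone marrow groups minus the mean of the others. Depth was 19569650 to 40517739 expected counts, which limits genes of few counts.

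For ATAC-seq, the authors shifted reads for Tn5, pooled 6 samples per tissue (3 replicates, 2 entries each) and called peaks with MACS2. The deposited lists give each summit's fold enrichment, a ratio over the genomic background, and −log10 p and −log10 q. Versions are not given in the sources used here. Summits were counted within 50 kb of each gene and, as promoter summits, within 1 kb of a start, at a −log10 q of at least 7. Sequences came from RefSeq promoters (GRCm38.p6) and the GRCm38 genome, and motifs were searched on both strands.

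The members, gene lists and tests were chosen with earlier results of these data known. Pathway genes were named if they differed among the 4 tissues and their mean TPM reached 5 in a tissue and spanned at least 4-fold between tissues. Alternatives were DESeq2 1.42.0, upper-quartile or no factors, no filter, limma-trend (limma 3.58.1) on log2(TPM + 1) or log2(TPM + 0.1), a replicate block, each library left out, other distances and a −log10 q of 20. The tests were checked on simulated data.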

Additional observations from a re-analysis of the deposited data

How the results depend on the processing

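No called difference of a member changed direction in any alternative. Of the recomputed contrasts of single members, 1227 kept their direction and their side of the threshold, 43 lost and 16 gained a call, and 25 that were not called changed sign. The losses fell mostly on Wnt4, Wnt5b, Wnt10b, Sfrp2 and Rspo3, and the part of depth in them was not tested. Dkk3, Sfrp4 and Wnt5a in bone marrow against non-bone marrow, Sfrp1 between the bone marrow sites and Dkk2 against P-MSCs were called in every alternative. The number of members called between fBM-MSCs and vBM-MSCs was 2 with DESeq2 and with limma-trend on log2(TPM + 1), and 1 to 2 when each library was left out. Leaving out each library gave 8 to 9 members among the 4 tissues, 5 to 7 in bone marrow against non-bone marrow, 5 to 7, 6 to 8, 3 to 4, 4 to 6 and 4 to 7 in fBM-MSCs against A-MSCs, fBM-MSCs against P-MSCs, vBM-MSCs against A-MSCs, vBM-MSCs against P-MSCs and A-MSCs against P-MSCs, and 33 to 42 and 30 to 37 pathway genes among the 4 tissues and in bone marrow. Without scaling factors the median of all genes moved by -0.136, -0.129 and -0.23 on the log2 scale in fBM-MSCs, vBM-MSCs and A-MSCs against P-MSCs.

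At a −log10 q of at least 20, promoter summits were left for 0, 1, 2 and 1 members in fBM-MSCs, vBM-MSCs, A-MSCs and P-MSCs, and 17, 16, 26 and 25 summits within 50 kb. Within 10 kb there were 43, 43, 46 and 47 summits and within 100 kb 117, 114, 126 and 124. These changes follow from the construction of the alternatives.

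With a replicate block, 8 members were called among the 4 tissues and 6 in bone marrow, 1 between the bone marrow sites, and 7, 6, 4, 4 and 6 in the other contrasts in the order above, with 38 and 36 pathway genes. Libraries of the same number correlated at -0.0279 to 0.125 in their deviations from the group means (15 pairs) and those of different numbers at -0.125 to 0.11 (30 pairs), which does not settle which libraries share a mouse. The deviations of the 2 vBM-MSC libraries mirror each other by construction. The block ended the calls of Wnt4 in bone marrow (2.51, adjusted p = 0.0593) and in vBM-MSCs against P-MSCs (0.103), of Wnt5b and Sfrp2 in fBM-MSCs against P-MSCs (0.0622 and 0.0594) and of Wnt5b among the 4 tissues (0.0730).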

Other observations

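Single libraries stood apart for some genes of the pathway or the marker lists, which were chosen after their values were seen. fBM-MSC replicate 3 had 0.10 TPM of Wnt2 and 10.2 TPM of Cd34, beside 21.1 and 12.7 TPM of Wnt2 and 79.2 and 72.7 TPM of Cd34 in the other fBM-MSC libraries. Wnt10a reached 9.68 TPM in fBM-MSC replicate 1, with 0.24 TPM as the lowest fBM-MSC value. Emcn, an endothelial gene, stood at 49.5 TPM in A-MSC replicate 1.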
